A study of Mus musculus with 282 samples.

Results

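Alternative first exon events were pairs of transcription starts of the same locus: 2 first exons that did not overlap and were spliced to the same acceptor of a downstream exon. They were built from the exon coordinates of the assembled transcripts, with exact boundaries. The rule gave 9544 events in 2879 genes, which was 36.8% of the 25952 events of 7 splicing types built in the same way in 6805 genes. The usage of each pair was given as percent spliced in (PSI, from 0 to 1), the summed FPKM of the transcripts from the upstream (distal) first exon over the summed FPKM of the transcripts from both first exons.

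The data were mRNA profiles of whole hypothalamus, 1 unstranded library per mouse, from 282 male mice fed a high fat diet. The mice belonged to 99 strains of the Hybrid Mouse Diversity Panel: 25 inbred strains (71 mice), 18 AXB/BXA strains (47 mice) derived from A/J and C57BL/6J, 43 BXD strains (126 mice) derived from C57BL/6J and DBA/2J, 6 BXH strains (16 mice) derived from C57BL/6J and C3H/HeJ, and 7 CXB strains (21 mice) derived from BALB/cJ and C57BL/6J. In all, 85 strains had 3 mice, 12 had 2 and 2 had 1. A recombinant inbred strain carries a fixed mosaic of its parents' genomes, so that several strains of a set carry the same parental allele. Every strain shared sex and diet, so no value here speaks to either, and a whole hypothalamus mixes neurons, glia and vessels, so that fewer cells of a type and less RNA per cell cannot be told apart.

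A gene with several promoters can start its RNA in different cell types or under different signals, and each start brings its own first exon. Where translation begins downstream of the shared acceptor the protein is the same and only the leader differs, whereas a first exon that holds a start codon changes the amino terminus. In brain, genes such as Bdnf, Gnas and the clustered protocadherins are known for this arrangement.

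Before the values, 19 libraries have to be set apart. In 18 of them, between 50.3% and 55.2% of the unannotated isoforms were listed at FPKM 0, against 5.94% to 20.2% in the 263 other libraries, whereas their known transcripts were at 0 in 6.83% to 12.3% of cases, within the range of the other libraries (5.03% to 20.2%). These 18 were all mice of BXD-9/TyJ, BXD62, BXD70, BXD75, BXD85 and BXHA1 and 1 mouse of BXD87, so that they coincided with whole strains in all but 1 case. The 19th library, from a BXD-12/TyJ mouse, had 35.8% of known transcripts and 38.1% of unannotated isoforms at 0. The hypothalamic markers (Agrp, Pomc, Hcrt, Pmch, Oxt, Avp, Sim1 and Nkx2-1) summed to a median of 1215 FPKM in the 19 libraries and 1336 FPKM in the others, with ranges of 858 to 9180 and 829 to 8345 FPKM. Anterior pituitary markers ranged from 6.80 to 16462 FPKM in the 19 libraries and from 0.589 to 15828 FPKM in the others, with a median of 25.8 FPKM in both, and choroid plexus, thalamus and blood markers overlapped between both sets as well. Their part in the results was not tested beyond a fit with the anterior pituitary, choroid plexus and thalamus lists as covariates. Because 6250 of the 9544 events had at least 1 form without a known transcript, the main counts below are given with all libraries and without the 19. Values of single switches are those without the 19, and none of the parental strains or AXB/BXA strains was among them.

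**Figure D1:**
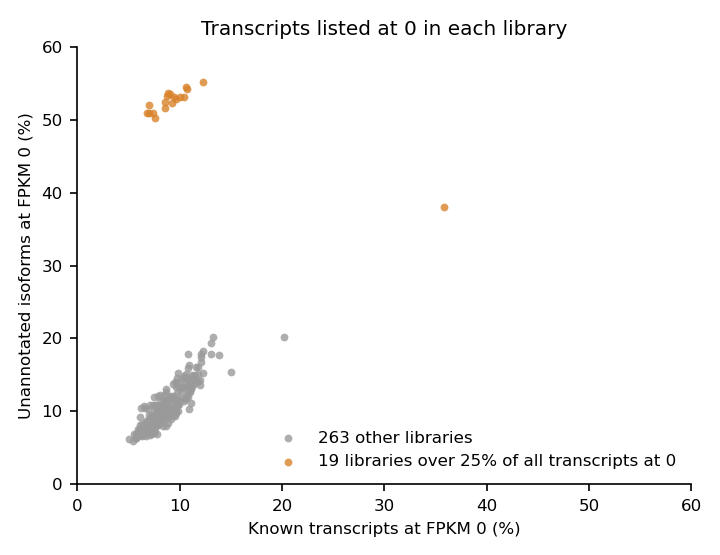
Each point is 1 of 282 libraries, with the percentage of known transcripts listed at FPKM 0 on the x axis and of unannotated isoforms on the y axis. The 19 libraries with over 25% of all transcripts at 0 are in orange: 18 of them lie above 50% on the y axis at an ordinary x value, and 1 lies at 35.8% and 38.1%.

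The sequences of the switches that the results turn on are printed as the join of each first exon to the shared exon, because a read across that join tells both starts apart. The first 15 bases, in capitals, are the end of the alternative first exon and the last 15, in lower case, are the start of the exon that both forms share. They were read from GENCODE M21 transcripts that hold the same junction in mm10, which also held the intron chains of 98.0% of the known multi-exon transcripts of the assembly (28192 of 28754).

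Agt distal: AGGTTGGCGCTGAAGgatacacagaagcaa
Ptms distal: GCCCTTTATGAGAGGgacctgaaagaaaag
Ptms proximal: GCAAAGGCCCCTGAGgacctgaaagaaaag
Hmgb1 distal: TGTGCCTCGCGGAGGaaaatcaactaaaca
Hmgb1 proximal: TGCTCTAAGAGCTGGaaaatcaactaaaca
Mpv17l distal: TGAGATATCCACCAGgcatgagcgttctcc
Mpv17l proximal: CTGCCTTCTACGTCGgcatgagcgttctcc
Nt5c2 distal: GGCGAGGACGCGAAGaattcatcctacaaa
Nt5c2 proximal: CGTGCGGTGCGGCCGaattcatcctacaaa
Mrpl48 distal: GGCGCGGAGACTGAGgtgctgggtgtgtgg
Mrpl48 proximal: GGAACCCTGGGAAAGgtgctgggtgtgtgg
Map2 distal: ACAGAGAAACAGCAGaggaggtatctgcaa
Map2 proximal: AGGCACTTCTATAAGaggaggtatctgcaa

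In every pair the lower-case part is identical and the upper-case part differs, which is what the rule asks for. The 26-nt proximal first exon of Agt was unannotated and has no junction in GENCODE M21.

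The DNA just before a start was available for the starts that lie within 50 nt of a RefSeq start (RefSeq, GRCm38.p6). The 100 bases before the start are shown for Agt, whose pair had the largest strain share among the named switches. They are also shown for Hmgb1 and Nt5c2, which are among the switches with a RefSeq start on both sides. Capitals mark CG dinucleotides and the letters TATAAA.

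Agt distal, chr8:124569707-124569806, minus strand: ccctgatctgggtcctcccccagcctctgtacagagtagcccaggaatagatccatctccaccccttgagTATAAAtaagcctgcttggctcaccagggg
Hmgb1 distal, chr5:149053058-149053157, minus strand: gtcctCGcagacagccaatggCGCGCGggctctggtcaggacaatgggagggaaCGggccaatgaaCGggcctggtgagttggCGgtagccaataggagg
Hmgb1 proximal, chr5:149051617-149051716, minus strand: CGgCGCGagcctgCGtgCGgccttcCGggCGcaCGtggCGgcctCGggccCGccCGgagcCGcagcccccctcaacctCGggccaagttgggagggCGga
Nt5c2 distal, chr19:47015175-47015274, minus strand: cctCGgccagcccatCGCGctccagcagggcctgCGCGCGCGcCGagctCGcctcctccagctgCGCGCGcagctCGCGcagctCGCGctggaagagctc
Nt5c2 proximal, chr19:46962352-46962451, minus strand: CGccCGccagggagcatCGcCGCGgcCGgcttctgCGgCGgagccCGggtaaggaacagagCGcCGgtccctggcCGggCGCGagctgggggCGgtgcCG

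The Agt window held TATAAA and 0 CG dinucleotides, whereas the Hmgb1 windows held 7 and 15 CG dinucleotides and the Nt5c2 windows 16 each, with no TATAAA. 1700021K19Rik and Mrpl48, not shown, also had a RefSeq start on both sides. Their distal windows held 14 and 11 CG dinucleotides and their proximal windows only 4 and 2, with no TATAAA. Over all events, 2338 of 5748 distal and 1279 of 4994 proximal starts lay within 50 nt of a RefSeq start, and the others have no window here. The 250 bases before those RefSeq starts held a median of 17 CG dinucleotides in the 1760 windows of distal starts. The median was 16 in the 1024 windows of proximal starts, against 6 in all 32851 RefSeq windows. The median GC content was 62.0%, 62.0% and 52.4% in the same order. TATAAA stood within the 50 bases before the start, on the strand of the gene, in 1.25% of distal, 0.879% of proximal and 2.63% of all windows (1.59%, 1.07% and 3.50% on either strand). These are matches of letters and not sites of binding.

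The starts of a pair lay between 18 and 1014639 nt apart, with quartiles of 475, 1246 and 9308 nt. The 9544 events used 5803 distal and 5041 proximal first exons, of a median length of 184 and 122 nt. Of these, 12.1% of the distal and 26.3% of the proximal first exons were shorter than 50 nt, the length of 1 read, and 36.6% of the events held at least 1 such exon. The distal start matched a GENCODE M21 start within 50 nt in 76.2% of events, the proximal start in 62.9% and both in 51.8% (4948 events). In 545 events (5.71%) the proximal first exon overlapped an internal exon of another transcript.

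The distal form was on average the more abundant one in 55.3% of events. The mean PSI over mice had quartiles of 0.319, 0.555 and 0.785. It lay between 0.2 and 0.8 in 63.0% of events, and the minor form was under 10% on average in 17.2%. A middling mean does not show that both forms were used in the same mouse. In Morn4 it was 0.581 ± 0.473 (SD over 263 mice), with strain means from 0.000109 to 0.997. The median summed level of both forms was 6.14 FPKM. The forms differed in the first exon alone in 843 events (8.83%), and in 8533 events (89.4%) their transcripts also differed further downstream, so that PSI there is the share of whole transcripts and not of a start alone. Among the events whose forms both had an annotated coding sequence, it differed in 1765 and was the same in 516.

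Genes carried a median of 2 events, 1164 had exactly 1 and 166 had 10 or more. Bcan, which encodes the brain extracellular matrix proteoglycan brevican, had the most events, 72 from 14 first exons within 2379 nt. Pcdhga9, the name given to the locus of the gamma protocadherins, adhesion molecules whose variable first exons are joined to shared constant exons, had 63 events from 12 first exons spread over 150315 nt. Smarca2, an ATPase of the SWI/SNF chromatin remodelling complex, had 54. They differed in how many events varied between strains: 5 of 72 in Bcan, 63 of 63 in Pcdhga9 and 12 of 54 in Smarca2 with all libraries, and 3, 54 and 6 without the 19. Events of a locus share transcripts and are not independent.

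To ask which promoter pairs depended on the strain, PSI was compared between strains by limma's moderated F test, adjusted by the Benjamini-Hochberg method over all events of the 7 types, with a threshold of 0.05. Of 9528 alternative first exon events tested, 2806 (29.5%) differed between strains with all libraries, where the percentage over all 25926 events was 29.9%, and 1587 (16.7%) without the 19 libraries, where it was 17.1%. These percentages were close to those over all events, which include the alternative first exon events themselves. The calls came from 1229 of 2878 genes (42.7%) with all libraries and from 838 (29.1%) without. The median share of PSI variance that lay between strains (the intraclass correlation) was 0.074 and 0.057, so that for most pairs mice of 1 strain differed about as much as mice of different strains. A strong switch was defined as a called event whose strain means spanned at least 0.5 and whose summed level was at least 1 FPKM. No minimum of mice per strain was set, so that the 1 mouse of AXB-12/PgnJ or of I/LnJ could supply an end of the span. This definition was met by 1849 events (19.4%, all events 15.4%) in 845 genes with all libraries, and by 842 events (8.84%, all events 6.54%) in 477 genes without the 19.

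The percentage called rose with level, from 14.4% of events under 2 FPKM to 39.6% of those of 50 FPKM or more (7.32% and 31.2% without the 19 libraries). It was 26% where the starts lay under 500 nt apart and 40.8% where they lay 100000 nt or more apart (15.5% and 23.6% without the 19); the latter were 327 events of 83 genes. Events whose forms differed in the first exon alone were called in 19.4% with all libraries and in 16.6% without, and those whose forms also differed downstream in 30.6% and 16.7%. Events with known transcripts in both forms were called in 24.5% and 18%, and those with an unannotated form in 32.0% and 15.9%, so that the order of these classes turned when the 19 libraries were left out. None of these differences between classes was tested, because events share genes.

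**Figure D2:**
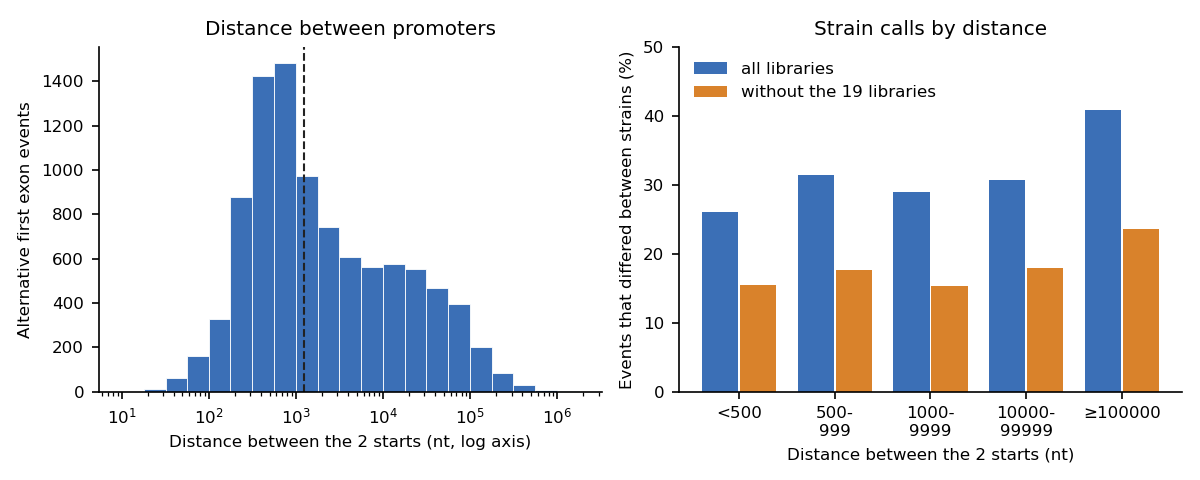
Left, the number of alternative first exon events by the distance between both starts (nt, log axis), with the median of 1246 nt dashed. Right, the percentage of events that differed between strains in 5 classes of distance (nt), with all libraries in blue and without the 19 libraries in orange: 26% and 15.5% under 500 nt, 40.8% and 23.6% at 100000 nt or more.

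The rule for naming switches took, among called events with PSI in every mouse, at least 2 FPKM, starts at least 1000 nt apart and strain means that spanned at least 0.5, the event with the largest strain share in each gene, and of these genes the 20 with the largest share. With all libraries, 554 events of 326 genes met it before ranking, and 298 events of 205 genes without the 19 libraries. Agt, Ptms and Morn4 were in both sets of 20. Of the 20 events named with all libraries, 6 were still called without the 19, among them Pcdhga9 (adjusted p = 0.00197) and Syngr1, a synaptic vesicle protein (adjusted p = 0.0287).

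In the 14 events that lost their call, PSI in the 19 libraries stood apart from the others. In Rabgap1, a GTPase-activating protein, PSI had a median of 0 (range 0 to 0.930) in the 19 libraries and ranged from 0.766 to 0.970 in the others, and its strain share was 0.940 with them and 0.144 without (adjusted p = 0.0973). In Dlg4, which encodes the postsynaptic scaffold PSD-95, PSI ranged from 0 to 0.793 in the 19 libraries and from 0.809 to 0.980 in the others, and both ranges did not overlap. In Clu, the secreted chaperone clusterin, the median went the other way, 1 in the 19 libraries and 0.0916 in the others, and the share went from 0.905 to 0.135. Slc1a2, the glial glutamate transporter GLT-1, had medians of 1 and 0.0485 and shares of 0.820 and -0.029, and Oaz1, the ornithine decarboxylase antizyme, medians of 0.00554 and 0.587 and shares of 0.824 and -0.049. Gnb1, Ctdnep1, Cmip, Myt1l, Thra, Zfr2, Arl8a, Acot7 and Atp6v1g2 lost their calls in the same way, with shares of 0.801 to 0.890 with the 19 libraries and of -0.034 to 0.146 without.

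**Figure D3:**
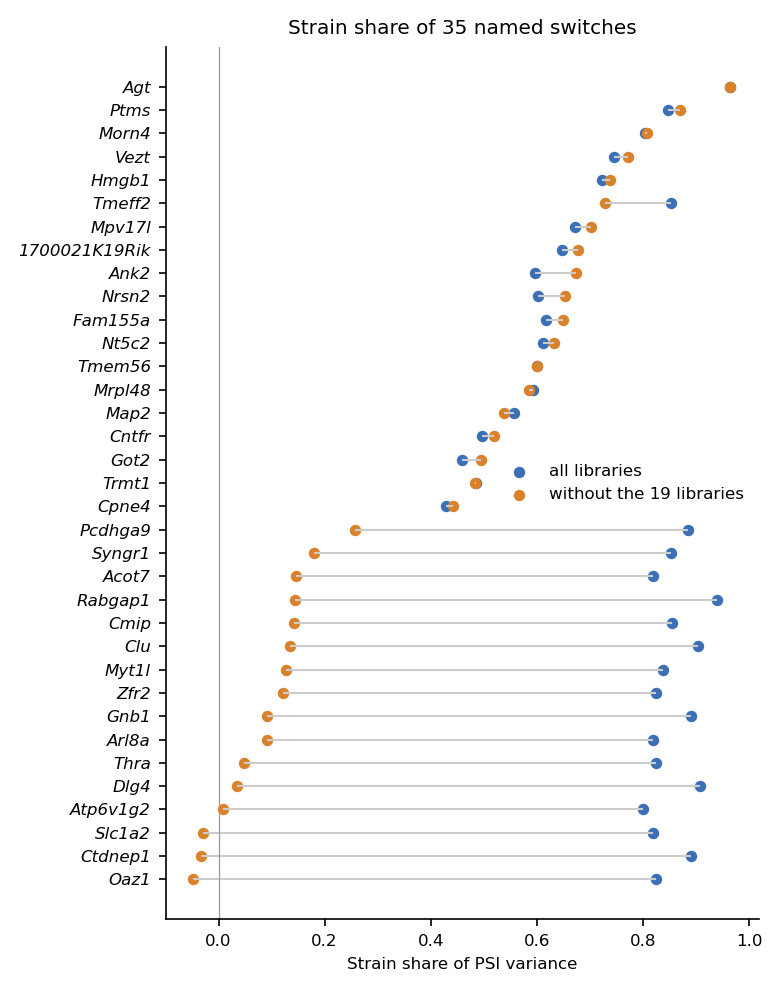
Strain share of PSI variance (intraclass correlation, x axis) of 35 switches named with all libraries, without the 19 libraries or in both, with all libraries in blue and without the 19 in orange. Agt, Ptms and Morn4 stay above 0.8 in both, whereas 16 switches at the foot of the plot fall from over 0.8 to under 0.3 without the 19 libraries.

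The switches described next were named by the same rule without the 19 libraries, a choice made after the data were seen. Their strain shares ran from 0.442 to 0.964 without the 19 libraries and from 0.429 to 0.964 with them. All 20 were called without the 19 by the rule itself, and all 20 were also called with all libraries. Annotated starts stood on both sides in 10 of them, 7 had a first exon under 50 nt, 4 (Agt, Morn4, Nrsn2 and Cntfr) had forms that differed in the first exon alone and 6 had forms with different coding sequences. Exons of a gene on the opposite strand lay over a first exon in several: Fyttd1 over 1700021K19Rik, Gm14164 over Nrsn2, Ina over Nt5c2, Rab6a over Mrpl48 and Nacc1 over Trmt1. Since the libraries were unstranded, reads of such a pair cannot be told apart there.

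Agt encodes angiotensinogen, the precursor of the angiotensin peptides, which in brain is made mainly by astrocytes. It lies on the minus strand of chromosome 8, with the known start at 124569706 (a 31-nt first exon) and an unannotated start at 124564928 (a 26-nt first exon), 4778 nt downstream and within the first intron. PSI was 0.991, 1 and 0.994 in the 3 C57BL/6J mice and 0.975, 0.993 and 1 in DBA/2J. It was 0.0559, 0.20 and 0.0239 in A/J and 0.246, 0.251 and 0.290 in BALB/cJ. No mouse of A/J or BALB/cJ overlapped with any of C57BL/6J or DBA/2J. The difference between A/J and C57BL/6J was -0.90 (SE 0.05, adjusted p = 7.1e-33, limma), and between DBA/2J and C57BL/6J it was -0.01 (adjusted p = 0.996).

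The levels of both Agt forms exchanged places. The distal form was at 120 ± 11.9 FPKM (SD, n = 3) in C57BL/6J and 7.58 ± 7.73 FPKM in A/J, and the proximal form at 0.658 ± 0.633 and 70.8 ± 9.17 FPKM. The sum was 120 ± 12.5 and 78.4 ± 9.87 FPKM, lower in A/J. Among strains, 22 of 93 lay nearer the low end, 9 of them among the 25 inbred strains: A/J, BALB/cJ, BUB/BnJ, I/LnJ, LG/J, NZB/BlNJ, NZW/LacJ, RIIIS/J and SEA/GnJ. The recombinant sets split as their parents did. The 18 AXB/BXA strains ranged from 0 to 0.994, all within 0.2 of a parental mean, with 7 nearer C57BL/6J and 11 nearer A/J (adjusted p = 4.7e-17 among them), whereas the 38 BXD strains, whose parents were both high, ranged from 0.957 to 1 (adjusted p = 0.950). Of the 7 CXB strains, 5 lay nearer C57BL/6J and 2 nearer BALB/cJ.

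Cntfr, the alpha subunit of the ciliary neurotrophic factor receptor, also differed in the first exon alone, with both starts known and 1598 nt apart on chromosome 4 and the same coding sequence. PSI was 0.554, 0.432 and 0.473 in C57BL/6J and 0.689, 1 and 0.792 in DBA/2J, and strain means ran from 0.214 in AXB-2/PgnJ to 0.869 in BXD43 without falling into separate groups. The strain share was 0.520, and the 3 mice of either parent did not overlap, but the parental difference of 0.34 missed the threshold (adjusted p = 0.146). Tmeff2, a transmembrane protein with an EGF-like domain, had PSI of 0.436, 0.477 and 0.564 in C57BL/6J and 0.0955, 0.120 and 0.238 in DBA/2J, a difference of -0.34 (adjusted p = 0.000589). BXH-9/TyJ was the highest strain, with 0.745, 0.692 and 0.721, and its distal form was at 3.8 FPKM against 1.42 in C57BL/6J. The proximal form was at 1.48 and 1.52 FPKM.

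Ptms encodes parathymosin, a small acidic nuclear protein. Its starts lay at 124920055 and 124915379 on the minus strand of chromosome 6, 4676 nt apart, with first exons of only 17 and 20 nt. The assembly classed the transcripts of both forms as unannotated. GENCODE M21 nevertheless holds both junctions, and a start within 50 nt of the distal but not of the proximal start. PSI was 0.0966, 0.0379 and 0.177 in C57BL/6J, 0.876, 0.669 and 0.634 in DBA/2J and 0.956, 0.774 and 0.817 in A/J. Both other parents lay above all C57BL/6J mice, by 0.62 (SE 0.09, adjusted p = 5.2e-08) and 0.75 (SE 0.09, adjusted p = 2.6e-11); both contrasts share the C57BL/6J mice. The proximal form was at 96.8 ± 18.6 FPKM (n = 3) in C57BL/6J and 21.1 ± 12.4 in DBA/2J, and the distal form at 12.1 ± 9.01 and 51.8 ± 1.32 FPKM. BXD strains divided 19 to 19 between the parents and AXB/BXA strains 11 to 7, with adjusted p = 2.5e-26 and 3.2e-10 among the strains of each set. A further start of Ptms with a known transcript, 2567 nt above the same proximal start, had 110 FPKM on average over mice, and that pair was called too (strain share 0.832).

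Hmgb1 encodes a chromatin protein that is also released as an alarm signal. Both starts were known, 1424 nt apart on chromosome 5, with the same coding sequence. The forms also differed downstream, so that their FPKM are those of whole transcripts. PSI was 0.529, 0.538 and 0.574 in C57BL/6J, 0.278, 0.144 and 0.207 in A/J and 0.142, 0.296 and 0.151 in C3H/HeJ. The distal form was at 8.30 ± 0.632 FPKM in C57BL/6J and 3.32 ± 0.960 in A/J, and the proximal form at 6.85 ± 0.260 and 12.7 ± 1.5. The forms thus moved in opposite directions and the groups did not overlap (difference -0.34, adjusted p = 0.000804). AXB/BXA strains spread from 0.133 to 0.585, 5 nearer C57BL/6J and 13 nearer A/J, whereas the BXD strains, from parents that were alike (0.547 and 0.552), ranged from 0.376 to 0.623 (adjusted p = 0.514).

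Among the enzymes, Nt5c2 encodes a cytosolic purine nucleotidase. Its known starts lay 52802 nt apart on chromosome 19, and the forms had different coding sequences but also differed downstream. A single strain made the switch: PSI was 0.15, 0.124 and 0 in the 3 NZB/BlNJ mice, whereas the other 92 strains lay nearer the high end and C57BL/6J had 0.546, 0.475 and 0.546. In NZB/BlNJ the distal form was at 3.14 ± 2.82 FPKM and the proximal at 28.9 ± 1.69, against 12.2 ± 0.542 and 11.3 ± 1.46 in C57BL/6J. NZB/BlNJ had the highest sum of all strains, 32.1 FPKM. Got2, the mitochondrial aspartate aminotransferase, had a proximal first exon that was 26 nt long and unannotated. It was lowest in NON/LtJ, with PSI of 0.249, 0.381 and 0.184. The BXD strains lay between 0.396 and 0.672, and the 1 mouse of AXB-12/PgnJ was highest at 0.890. Trmt1, a tRNA methyltransferase, had C57BL/6J mice at 1, 1 and 0.751, with 0 FPKM of the proximal form in 2 of them, and DBA/2J mice at 0.363, 0.681 and 0.352. The ranges did not overlap, but the difference of -0.45 missed the threshold (adjusted p = 0.163).

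Mrpl48, a protein of the large subunit of the mitochondrial ribosome, had PSI of 0.40, 0.541 and 0.556 in C57BL/6J, 0, 0.0683 and 0 in DBA/2J and 0.0949, 0.0907 and 0.164 in A/J. The distal form was at 4.37 ± 1.62 FPKM in C57BL/6J and was listed at 0 in 2 of 3 DBA/2J mice, while the proximal form was at 4.18 ± 0.543 and 5.72 ± 0.391. The distal form was the lower one in DBA/2J, while the proximal form was not. BXD strains divided 19 to 19 and AXB/BXA strains 9 to 9 (adjusted p = 8.5e-05 and 0.000952 among them). Mpv17l, an Mpv17-like membrane protein, had starts 37504 nt apart on chromosome 16 and forms with different coding sequences. PSI was 0.264, 0.454 and 0.375 in C57BL/6J, 0.597, 0.885 and 0.882 in DBA/2J and 0.809, 0.658 and 0.797 in C3H/HeJ. The DBA/2J and C3H/HeJ mice lay above every C57BL/6J mouse, with a DBA/2J difference of 0.42 (adjusted p = 0.00239). BXD strains divided 17 to 21 (adjusted p = 2.3e-13), and BXH strains 1 to 4, whereas AXB/BXA strains stayed at 0.441 or below (adjusted p = 0.871).

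**Figure D4:**
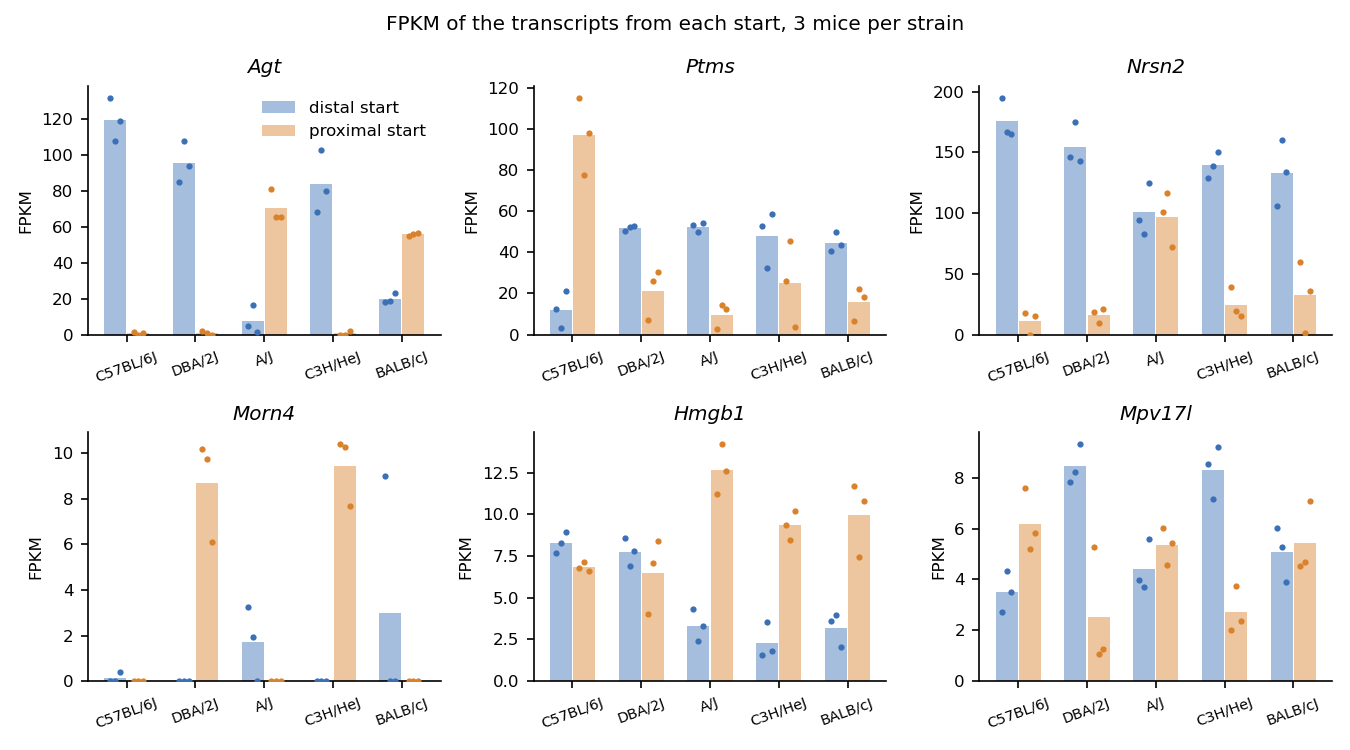
FPKM (y axis) of the transcripts from the distal start (blue) and the proximal start (orange) in 5 parental strains, for Agt, Ptms, Nrsn2, Morn4, Hmgb1 and Mpv17l. Points are the 3 mice of a strain and bars their mean. In Agt the distal form is at 120 FPKM in C57BL/6J and the proximal form at 70.8 FPKM in A/J, and in Morn4 both forms are near 0 in C57BL/6J while the proximal form is at 8.68 FPKM in DBA/2J.

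Among genes of the cytoskeleton and membrane, Ank2, which encodes ankyrin-B, had a 21-nt first exon 176810 nt above the other start on chromosome 3. The distal start was not annotated, and GENCODE M21 holds its junction only within transcripts that start further upstream, so that an internal exon of longer transcripts cannot be told apart from a start here. NZW/LacJ alone was low, with PSI of 0, 0.135 and 0, where C57BL/6J had 0.916, 0.905 and 0.860. The summed level in NZW/LacJ was 0.868 ± 0.0927 FPKM against 15.2 ± 4.21 in C57BL/6J, and the proximal form was at 0.824 and 1.56 FPKM, and the distal form at 0.0439 and 13.7 FPKM. Vezt, the adherens junction protein vezatin, was low in NZB/BlNJ alone, with 0.293, 0.352 and 0.332 against 0.693, 0.712 and 0.690 in C57BL/6J. Its distal form was at 1.5 ± 0.255 and 6.78 ± 0.316 FPKM, and its proximal form at 3.09 ± 0.171 and 2.93 ± 0.140. Beyond that strain, DBA/2J exceeded C57BL/6J by 0.19 (adjusted p = 3.8e-05), with 0.855, 0.908 and 0.913.

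Map2, the dendritic microtubule-associated protein, had known starts 6466 nt apart on chromosome 1 with different coding sequences. Strain means ran from 0.137 in BXD44 to 1 in CBA/J, where the proximal form was listed at 0 in all 3 mice. PSI was 0.386, 0.269 and 0.269 in C57BL/6J and 0.750, 0.530 and 0.652 in DBA/2J. These ranges did not overlap, but the difference of 0.34 missed the threshold (adjusted p = 0.395). The strains of both recombinant sets differed (adjusted p = 0.000366 among BXD and 8.0e-05 among AXB/BXA strains), while the gene level of Map2, with all libraries, did not pass the test (share 0.055, adjusted p = 0.194).

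Nrsn2 encodes neurensin-2, a neuronal vesicle membrane protein, and was the switch with the highest level among the 20 (145 ± 28.2 FPKM for the distal form and 30.4 ± 33.2 for the proximal form over mice). PSI was 0.917, 1 and 0.914 in C57BL/6J, 0.483, 0.414 and 0.633 in A/J and 0.345, 0.304 and 0.428 in NZW/LacJ. The sums were alike, 187 ± 23.2, 197 ± 2.27 and 206 ± 6.68 FPKM, while the split moved (A/J difference -0.43, adjusted p = 4.5e-05). AXB/BXA strains divided 13 to 5 (adjusted p = 9.0e-10). Its proximal first exon was 17 nt long and unannotated, and Gm14164 lies over a first exon on the other strand.

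Fam155a, an auxiliary protein of the NALCN sodium leak channel, had low PSI in C3H/HeJ (0.265, 2.0e-05 and 0.000127) and in BXHB2 (mean 0.190), a strain derived from C3H/HeJ, against 0.910, 0.916 and 0.945 in C57BL/6J. Both first exons, 19 and 14 nt long, were unannotated. The distal start of this pair, at 9427690, was also the proximal start of the pair 343328 nt wide, where the mean PSI was 0.964 in C3H/HeJ. Both values follow from the same transcripts, which were at 0.754 ± 1.31 FPKM in C3H/HeJ and 10.7 ± 3.75 in C57BL/6J. In 1700021K19Rik, NZB/BlNJ mice had PSI of 1 each with the proximal form between 2.3e-06 and 0.000470 FPKM, and only NZB/BlNJ and NZW/LacJ of 93 strains were high. C57BL/6J had 0.270, 0.275 and 0.298, with 10.7 ± 0.963 FPKM of the proximal form. Both these calls, which rest on 2 strains each, were lost with the Kruskal-Wallis test.

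Morn4 shows a PSI that has to be read with its level. PSI was 0.973, 0.952 and 0.99 in C57BL/6J and 9.1e-05, 0.000167 and 0.000600 in DBA/2J, but the sum of both forms in C57BL/6J was 0.141 ± 0.236 FPKM and 88 of 263 mice were under 0.5 FPKM. What differed was the proximal form, at 0.00148 ± 0.00224 FPKM in C57BL/6J, 8.68 ± 2.23 in DBA/2J and 9.47 ± 1.53 in C3H/HeJ. Both first exons, 21 and 30 nt long, were unannotated. Cpne4, a calcium-dependent phospholipid-binding copine, had PSI of 0 in all 3 BXD-19/TyJ mice and 0.413, 0.424 and 0.466 in A/J, and Tmem56 had 0.192, 0.183 and 0.173 in C57BL/6J and 0.377, 0.587 and 0.423 in DBA/2J. Neither parental contrast of Tmem56 or Cpne4 passed the threshold (adjusted p = 0.0666 and 0.812 for DBA/2J), whereas the BXD strains differed in Tmem56 (adjusted p = 5.8e-11).

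**Figure D5:**
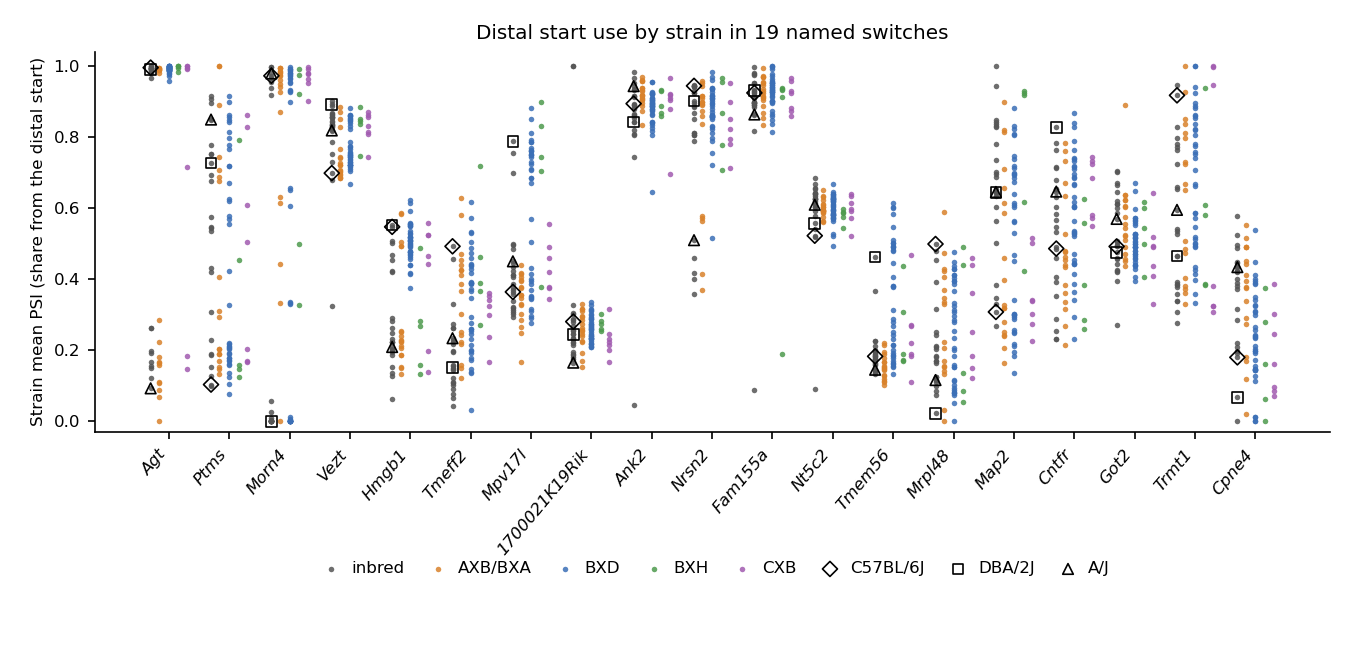
Mean PSI (y axis, the share from the distal start) of each of 93 strains for 19 of the switches named without the 19 libraries (x axis), coloured by strain set, with C57BL/6J, DBA/2J and A/J marked by open symbols. In Agt the AXB/BXA strains fall near 1 or below 0.3 and the BXD strains lie at 0.957 or above.

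The highest or lowest mean of a switch was often that of AXB-12/PgnJ or I/LnJ, the strains with 1 mouse, whose value has no replicate. AXB-12/PgnJ was an extreme in Agt, Ptms, Mrpl48 and Got2, and I/LnJ in Hmgb1 and Cpne4.

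The parental strains were then compared directly. Without the 19 libraries, 90 events in 56 genes differed between DBA/2J and C57BL/6J (0.945% of 9522 events, where the percentage over all events was 1.03%), the distal form being higher in DBA/2J in 42 and lower in 48. Between A/J and C57BL/6J, 108 events in 72 genes differed (1.13% of 9520, all events 1.19%), the distal form being higher in A/J in 48 and lower in 60. With all libraries the counts were 80 (0.840%, all events 0.895%) and 85 (0.893%, all events 0.988%), the distal form being higher than in C57BL/6J in 35 and 37 and lower in 45 and 48. The median size of a called difference was 0.34 and 0.32 in PSI.

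The recombinant strains were also tested on their own. Their mice are in neither parental mean, but they share in the residual variance of the parental contrasts, which came from 1 fit over all strains, so that both sets of calls are not independent. Among the 90 events called between DBA/2J and C57BL/6J, 60 (66.7%) also differed among BXD strains, against 318 of the 9430 others (3.37%), where the percentage over all alternative first exon events was 3.97% (378 of 9526) and over all events 4.25%. Of the same 90 events, 41 (45.6%) also differed among AXB/BXA strains, which have no DBA/2J parent. By gene, 30 of 56 had an event called in both DBA/2J and the BXD strains. Among the 108 events called between A/J and C57BL/6J, 60 (55.6%) differed among AXB/BXA strains, against 231 of 9407 others (2.46%), with 3.06% (291 of 9523) over all alternative first exon events and 2.74% over all events. Of the same 108 events, 58 (53.7%) differed among BXD strains, which have no A/J parent, a share close to that of the AXB/BXA strains. By gene, 30 of 72 had an event called in both A/J and the AXB/BXA strains. With all libraries, the shares were 58 of 80 (72.5%) against 16.9%, and 50 of 85 (58.8%) against 2.56%. The BXD count itself fell from 1652 (17.3%) to 378 without the 19 libraries, 17 of which were BXD mice, whereas the AXB/BXA count stayed at 291.

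The events with the smallest adjusted p in the parental contrasts, singled out after their values were seen, included several that are not described above. In Magohb, a core protein of the exon junction complex, PSI was 0.938, 1 and 1 in C57BL/6J, 0.404, 0.446 and 0.346 in DBA/2J and 0.440, 0.349 and 0.335 in A/J. The proximal form, at 0.0985 FPKM in C57BL/6J, was at 4.2 and 3.73 FPKM in the other strains, and BXD strains divided 20 to 18. Ociad2 had PSI of 1 in each C57BL/6J mouse and 0, 0.0321 and 0 in DBA/2J, a nearly complete exchange of starts 2854 nt apart at 3.16 FPKM for the distal form and 1.85 FPKM for the proximal. Dap3, a protein of the small subunit of the mitochondrial ribosome, had 0.712, 0.738 and 0.787 in C57BL/6J and 0.000119, 0.168 and 0.297 in DBA/2J. Uap1, an enzyme that makes UDP-N-acetylglucosamine, went from 0.972, 0.956 and 0.982 in C57BL/6J to 0.877, 0.858 and 0.758 in A/J (-0.14, SE 0.01 from the residual variance over all strains, adjusted p = 1.7e-13). The SD of the 3 mice was 0.0132 in C57BL/6J and 0.0640 in A/J. A pair of gamma protocadherin starts (Pcdhga9) differed by -0.27 in DBA/2J (adjusted p = 6.8e-09) and another by -0.20 in A/J (adjusted p = 6.2e-13). Gapdh and Rps3a1 also ranked among them, with differences of 0.89 and 0.44. Both have many processed copies in the genome that can share reads, and their values are uncertain for that reason.

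Most genes varied in level between strains whether or not their promoter use did. Gene levels were tested once, with all libraries, and differed between strains in 75.4% of 14079 genes. They did so in 82.4% of the genes with an event called with all libraries and in 73.7% of the genes with events but no call. For events called without the 19 libraries, the same level calls gave 84.4% and 74.6%. This difference was not tested.

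Without the 19 libraries, the 5 genes with the widest pair that met the naming conditions were Kcnip4, Fam155a, Ank2, Ntm and Cdh13. Kcnip4, a subunit that modulates Kv4 potassium channels, had starts 761285 nt apart on chromosome 5, with a mean PSI of 0.186 ± 0.264 (SD over 263 mice) and a strain share of 0.165 (adjusted p = 0.0387). The wide pair of Fam155a had a share of 0.265, and a pair of Ank2 336773 nt apart had 0.258. Ntm, the adhesion molecule neurotrimin, had starts 226792 nt apart and a share of 0.167, and Cdh13, the adhesion molecule T-cadherin, 209173 nt and 0.239. The proximal first exons of Kcnip4, the wide Fam155a pair and Cdh13 were 34, 19 and 33 nt long and unannotated. With all libraries the other long pairs were Trpm3, a cation channel (553500 nt), Schip1, Dpp6 and Cntnap2. None of these other pairs was called without the 19 libraries, where the smallest adjusted p was 0.0565, in Schip1 (limma). Among the most abundant strong switches, Sparcl1, a secreted matrix protein of astrocytes, had 166 ± 62.7 FPKM for the distal and 191 ± 51.6 FPKM for the proximal form, but first exons of 12 and 27 nt that were not annotated, and a share of 0.253. Vsnl1, a neuronal calcium sensor, with unannotated first exons of 16 and 14 nt, had a share of 0.163. Basp1, a growth cone protein whose proximal first exon was 28 nt long and unannotated, had 0.310.

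Other pairs were used in nearly fixed proportion. Scg2, the granin secretogranin II of dense core vesicles, was listed with 158 ± 29.1 FPKM from a known start. An unannotated start 2479 nt downstream, with a first exon of only 18 nt, was listed with 139 ± 33.1 FPKM. PSI was 0.534 ± 0.0395 over 263 mice, with strain means from 0.442 to 0.608. Small as this range was, it passed the strain test without the 19 libraries (adjusted p = 0.0301) and not with them (0.162). Prkacb, a catalytic subunit of protein kinase A, had known starts 42179 nt apart and forms with different coding sequences that also differed downstream. The PSI of this pair was 0.795 ± 0.0363, with strain means from 0.749 to 0.856 (adjusted p = 0.762), whereas another pair of Prkacb starts, given below, differed between strains. Phyhipl, with different coding sequences as well, had 0.350 ± 0.0339 and strain means from 0.309 to 0.416 (adjusted p = 0.832). Acot7, an acyl-CoA thioesterase of neurons, and Oaz1 were also stable without the 19 libraries, with PSI of 0.570 ± 0.0404 and 0.587 ± 0.0533, although both ranked among the 20 largest switches with all libraries.

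Genes known for several promoters were examined by role, from lists that were chosen with earlier results of these data known. Among growth factors and their receptors, 6 of 10 genes had events, and 12 of 45 events were called without the 19 libraries (26.7%, against 16.7% of all alternative first exon events) and 21 (46.7%, against 29.5%) with them. These calls were in Ntrk2 and Fgf13 alone. Ntrk2, the BDNF receptor TrkB, had 11 of 27 events called without the 19 libraries and 20 with them. In Bdnf itself, which had 3 events, the largest strain share was 0.086 at 1.42 FPKM and none was called. Igf2, Fgf12 and Fgf14 had no call either.

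In cAMP, cGMP and calcium signalling, 8 of 10 genes had events and 2 of 50 were called without the 19 libraries (4.0%, against 16.7% of all alternative first exon events), 7 with them (14%, against 29.5%). Gnas, the stimulatory G protein alpha subunit whose upstream promoters are imprinted, had 15 events and no call, and the 2 calls were in Pde4b, a cAMP phosphodiesterase (starts 166515 nt apart, strain means from 0.333 in CBA/J to 0.867 in BXD55), and in Prkacb. The Prkacb call was not of the stable pair above but of another of its 9 events, with starts 221 nt apart at 20.4 FPKM. The strain means of that event ran from 5.9e-05 in AKR/J to 0.732 in PL/J (adjusted p = 0.00585, limma). Among imprinted genes, 3 of 7 had events and 6 of 30 were called without the 19 (20%, against 16.7%) and 4 with them (13.3%, against 29.5%). Meg3, a maternally expressed non-coding RNA, had a PSI of 0.301 in C57BL/6J and 0.531 in DBA/2J, the highest strain, at 176 FPKM. Snrpn, a spliceosomal protein gene expressed from the paternal allele, had 3 of 9 events called without the 19 libraries and 2 with them, and in that with the largest strain share, strain means stayed between 0.00744 and 0.0535.

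Of the cytoskeleton, membrane and myelin genes, 7 of 12 had events and 15 of 41 were called without the 19 libraries (36.6%, against 16.7% of all alternative first exon events), 19 with them (46.3%, against 29.5%). Ank3, which encodes ankyrin-G, the organiser of the axon initial segment, had 10 of 17 called without the 19 libraries and 12 with them, and Ablim1, an actin-binding LIM protein, 2 of 2 with starts 117361 nt apart and a share of 0.423. Rtn4, which encodes Nogo, had its only event called, with strain means from 0.367 in CXB-3/ByJ to 0.935 in CE/J at 86.8 FPKM. Among metabolic and neurotransmitter enzymes, the only event of Lpin1, a phosphatidate phosphatase (share 0.209), was called with and without the 19 libraries, and so was that of the gene of acetyl-CoA carboxylase (Acaca), the enzyme that commits its substrate to fatty acid synthesis. The latter had starts 50117 nt apart, a share of 0.40 and strain means from 0.210 in BXD51 to 0.930 in BXD-12/TyJ. Gad1 and Hsd11b1 had no call.

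Of the transcription factors and nuclear receptors, 9 of 17 had events and 5 of 46 were called without the 19 libraries (10.9%, against 16.7% of all alternative first exon events), all of them in Tcf7l2, a transcription factor of the Wnt pathway with 14 events, and 9 with them (19.6%, against 29.5%), of which 8 were in Tcf7l2. Nr3c1, the glucocorticoid receptor, had 3 events and no call. Ion channel auxiliary subunits had 5 of 35 events called without the 19 libraries (14.3%, against 16.7%) and 9 with them (25.7%, against 29.5%), in Dpp6 and Kcnip4. The list of synaptic adhesion molecules, receptors and scaffolds, which also held the transporter gene Slc1a2, had 6 of 29 (20.7%, against 16.7%) and 14 (48.3%, against 29.5%). Of these, 6 and 13 were in Slc1a2, which is none of these classes. Of the other members with events, Nrxn3, a neurexin, had no call, and Kalrn, a guanine nucleotide exchange factor of dendritic spines, had 1 with all libraries and none without the 19.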

How the data were processed

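Unstranded mRNA of 282 mice was aligned to mm10 by the authors with STAR 2.3.1, assembled per strain with Cufflinks 2.2.0, merged with an annotation and quantified with Cuffnorm 2.2.1. The deposited FPKM were scaled between mice by the authors, and the deposited assembly gives exon positions in mm10. FPKM carry no counts, and no counting interval was computed. The FPKM and the assembly do not give the depth, and mapped reads per library came from the study's list of libraries. Value columns left out numbered 0.

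Events were generated with exact exon boundaries. PSI was undefined where both forms were at 0. Events with PSI in at least 200 mice that was not constant were tested with limma 3.58.1 in R 4.3.3 (moderated F test between strains, all strains in 1 fit, parental contrasts in the same fit, BXD and AXB/BXA strains also alone), with Benjamini-Hochberg adjustment over all events. The 1 mouse whose labels named 2 strains (OB-627) was left out of comparisons, which leaves 281. Tables were handled in Python 3.11.15.

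Genes were named by rule: the 20 switches defined in the text, the 5 with the widest pair and the 5 with the highest level among events that met its conditions, the 5 most abundant stable pairs (PSI between 0.2 and 0.8, lowest 10% of SD over strain means) and the genes of the lists. Members and lists were chosen with earlier results of these data known. Alternatives changed the events made, the PSI scale, the test, covariates and mice. Mapping covariates came from the study's list of libraries. Leaving out the 19 libraries was chosen after seeing the data. Low ends of strain means were counted below the midpoint of the lowest and highest mean. 1 of the named switches is not reported here.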

Additional observations from a re-analysis of the deposited data

How the results depend on the processing

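No paired analysis was possible because the labels give mice no replicate numbers that are shared between strains.

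Leaving out the 19 libraries moved most counts: 1587 events and 477 strong-switch genes in place of 2806 and 845, a median strain share of 0.057 in place of 0.074 and 378 events among BXD strains in place of 1652. Using known transcripts alone gave 3294 events with a median distance of 1029.5 nt, of which 726 differed between strains in 442 genes, with 261 strong-switch genes, 42 calls for DBA/2J, 44 for A/J, 257 among BXD and 116 among AXB/BXA strains. Known transcripts without the 19 libraries gave 595 events in 359 genes, a median share of 0.059, 199 strong-switch genes and 46, 49 and 160 calls for DBA/2J, A/J and BXD strains. Merging overlapping first exons gave 4787 events with a median distance of 1573 nt, and 1390, 468, 774 and 178 calls between strains, for strong-switch genes, among BXD and among AXB/BXA strains. A mean FPKM of at least 1 left 5354 events (median distance 1203.5 nt). The Kruskal-Wallis test called 1538 events in 753 genes, 451 strong-switch genes, 591 among BXD and 0 among AXB/BXA strains. Among AXB/BXA strains, 649 of 9523 had an unadjusted p under 0.05, the smallest was 0.000489 (adjusted 0.673) and the limma test called 291. A rank test on 47 mice of 18 strains can give no very small p, and the adjustment ran over all events. The 0 was thus nearly set by the design and cannot be weighed against the 291. Leaving out a replicate of each strain gave 1389 to 1834 events, 674 to 864 genes, median shares of 0.069 to 0.093, 510 to 653 strong-switch genes, 35 to 59 calls for DBA/2J, 39 to 56 for A/J, 976 to 1067 among BXD and 94 to 168 among AXB/BXA strains. The causes were not tested, beyond fewer transcripts or mice by construction.

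Of the 36 named switches, 22 kept their call without the 19 libraries. These hold the 20 switches that were named from calls without the 19, which could not lose it. Of the 20 named with all libraries, 6 kept it and 14 lost it. With the Kruskal-Wallis test 30 of the 36 kept it (Dlg4, Ctdnep1, Myt1l, Oaz1, 1700021K19Rik and Fam155a lost it), and all 36 did when a replicate was left out. With known transcripts alone, 10 had an event and all 10 kept their call. With the anterior pituitary, choroid plexus and thalamus lists as covariates, all 36 kept it.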
